A study of Mus musculus with 9 samples.

Results

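To ask what loss of the remaining normal *Ctcf* allele changed in the embryonic heart, hearts homozygous for CTCF-R567W were compared with hearts heterozygous for it. CTCF-R567W is a missense allele, in which arginine 567 of the protein is replaced by tryptophan, and was made in C57BL/6N mice by CRISPR/Cas9 editing. All hearts were taken at E18.5, so the heterozygous embryos carried 1 mutant and 1 normal allele and the homozygous embryos 2 mutant alleles, and every mutant heart carried at least 1 mutant allele. The members were the 6 libraries of these 2 genotypes, 3 heterozygous and 3 homozygous, of 9 in the series, and the genes that averaged 1 TPM or more across them, which were 13832 of 24571 symbols (56.3%). The 3 libraries of wild-type hearts, which carried no mutant allele, entered the estimate of the spread and are given for their levels. TPM is the number of reads of a gene divided by its transcript length and brought to the same sum in each library. The substitution was present in the whole embryo and not in cardiomyocytes alone, and whether a library held 1 heart or a pool was not given in the sources used here. The labels do not say that replicates came from separate litters, so p-values measure the spread between these libraries, which may be technical.

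CTCF is a zinc-finger protein that binds DNA at a long motif and halts the cohesin ring there, which anchors chromatin loops and separates neighbouring regulatory domains. In the heart it is known to organise contacts between promoters and enhancers of cardiac genes. Genes arranged in clusters with alternative promoters, such as the protocadherins, are known for their dependence on CTCF-anchored loops.

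The libraries carried the defining markers of heart. The 10 cardiomyocyte markers summed to 31340 to 44161 TPM and none was at 0 in any of the 9 libraries. Markers of other organs were uneven. The 15 thymocyte markers summed to 765 TPM in homozygous replicate 3 and to 1.33 to 4.06 TPM elsewhere, and the 15 liver markers summed to 4223 TPM in heterozygous replicate 1 and to at most 175 TPM elsewhere. The same heterozygous library had 1109 TPM of 12 airway and lung markers, against at most 52.9 TPM in the other mutant libraries and 2629 TPM in wild-type replicate 1. Homozygous replicate 3 also correlated least with the other 8 libraries (Pearson r across genes, which are not independent replicates, 0.918 to 0.939, against 0.955 to 0.983 among those 8). The X-inactivation transcript *Xist* was at 112 to 146 TPM in all 3 heterozygous libraries and at 123 TPM in homozygous replicate 1, whereas homozygous replicates 2 and 3 had Y-linked transcripts in its place. The comparison was thus between females and a mixture of 1 female and 2 males, and among the mutant libraries sex and genotype can be told apart only through homozygous replicate 1. Wild-type replicate 1 was female, with 87.8 TPM of *Xist*, and wild-type replicates 2 and 3 were male. In whole-tissue RNA, fewer cells of a type and less RNA per cell cannot be told apart.

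Loss of the normal allele was accompanied by few changes that passed the test. At a limma adjusted p under 0.05, 6 of 13832 genes were called (0.0434%). The gene that rose was *Serpinb9*, 1 call (0.00723% of the genes tested), and the 5 that fell (0.0361%) were *Serpinb6b*, *Gm12854*, *Nmrk2*, *Man2b2* and *Tstd3*. Their TPM values were without overlap between the genotypes. Across all genes the median log2 change was 0.08 and 66.1% of genes lay above 0, with a median standard error of 0.18. At an unadjusted limma p under 0.05 there were 671 genes higher (4.85%) and 315 lower (2.28%) in homozygous hearts, and the values did not overlap for 1669 genes that were higher (12.1%) and 519 that were lower (3.75%). The balance of the unadjusted counts depended on scaling, since with library medians aligned by median-ratio scaling, which set the middle gene to 0.00, 438 genes were higher and 884 lower. The called genes were then 2 higher and 11 lower.

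**Figure D1:**
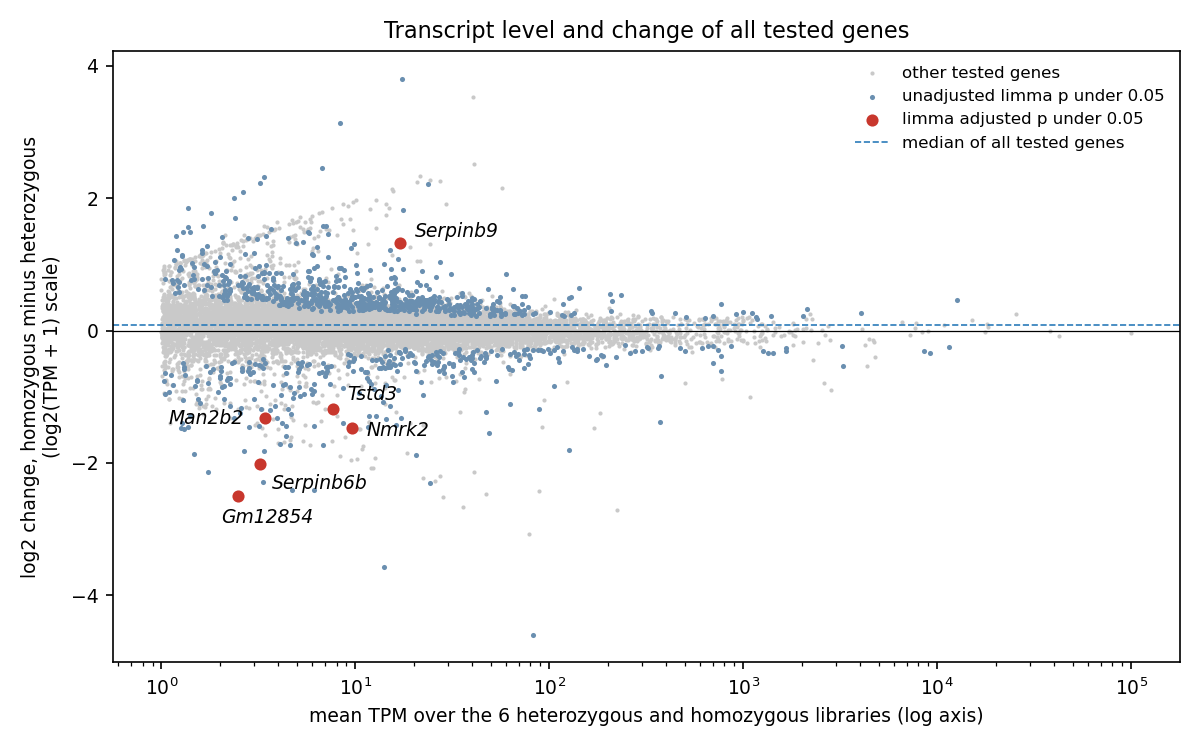
Mean TPM over the 6 heterozygous and homozygous libraries (log axis) against the log2 change, homozygous minus heterozygous, for the 13832 tested genes. Red points are the 6 genes at a limma adjusted p under 0.05, blue points those at an unadjusted p under 0.05, and the dashed line is the median of 0.08. *Serpinb9* is the single red point above 0 and the other 5 lie below 0.

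*Serpinb6b* and *Serpinb9* encode clade B serpins, intracellular inhibitors of proteases, and *Serpinb9* protects cells from granzyme B. They lie beside each other on chromosome 13 of the mouse genome (mm10), *Serpinb6b* at 32965209 to 32979067 and *Serpinb9* at 33003250 to 33017957, both on the plus strand with starts 38041 bases apart, and they moved in opposite directions. Their promoters (RefSeq, GRCm38.p6, 250 bases before to 50 after the start) are printed because the 2 genes differed between the genotypes in opposite directions. Capitals mark the match to CNAGGNGGC, a short core of the motif that CTCF binds, searched on both strands. The window of *Serpinb6b* is chr13:32965011-32965310 on the plus strand and that of *Serpinb9* is chr13:33004291-33004590 on the plus strand, where RefSeq places a start inside the annotated gene.
Serpinb6b: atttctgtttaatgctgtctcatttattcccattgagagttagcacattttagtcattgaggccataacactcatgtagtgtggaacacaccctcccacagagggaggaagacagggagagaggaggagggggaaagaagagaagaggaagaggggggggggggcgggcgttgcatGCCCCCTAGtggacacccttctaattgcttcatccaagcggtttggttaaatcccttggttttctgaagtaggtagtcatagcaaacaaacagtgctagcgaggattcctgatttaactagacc
Serpinb9: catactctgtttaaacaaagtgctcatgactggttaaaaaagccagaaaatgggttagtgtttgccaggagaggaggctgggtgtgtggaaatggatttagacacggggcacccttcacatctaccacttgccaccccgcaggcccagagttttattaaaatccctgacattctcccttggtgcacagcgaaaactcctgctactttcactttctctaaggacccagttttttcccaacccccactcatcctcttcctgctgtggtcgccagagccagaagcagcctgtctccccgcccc

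The promoter of *Serpinb6b* held 1 match, at position −74 from the start on the minus strand, and that of *Serpinb9* held none. Over all 32851 promoter windows of the same length 8.38% held a match, and over the 10033 tested genes with a window 14.7% did. Of the 4 called genes with a window, *Serpinb6b* was the 1 with a match, and *Nmrk2* and *Man2b2* had none. A match is a description of letters and does not show binding, and the absence of a match says only that these letters do not occur in the window.

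*Serpinb6b* was at 5.28, 5.49 and 6.50 TPM in the heterozygous and 0.69, 0.44 and 0.87 TPM in the homozygous libraries, so the homozygous mean was 0.116 of the heterozygous mean. On the log2(TPM + 1) scale, which understates the change of low genes, it fell by 2.02 (SE 0.16, limma adjusted p 0.00222). The wild-type libraries stood at 15.7, 12.9 and 14.9 TPM, above every mutant library. The 3 genotypes thus had 3 separate ranges, ordered by the number of mutant alleles.

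*Serpinb9* was at 9.45, 8.38 and 9.98 TPM in the heterozygous and 27.6, 26.6 and 20.5 TPM in the homozygous libraries. On the same scale it rose by 1.33 (SE 0.16, limma adjusted p 0.0353), and the homozygous mean was 2.69 times the heterozygous mean. In wild-type hearts it was at 3.13, 3.28 and 4.43 TPM, so its ranges were also separate, in the reverse order. Homozygous replicate 3, the library with thymocyte markers, had the lowest of the 3 homozygous values, and without it the log2 change was 1.46 (adjusted p 0.0382). When another single library was left out, the limma adjusted p lay between 0.0443 (without wild-type replicate 3) and 0.187 (without heterozygous replicate 3). Only the first of these passed. Few words of their transcripts occur elsewhere, 6.83% of the 31-base words of *Serpinb6b* and 4.94% of those of *Serpinb9*.

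Of the 16 clade B serpins of this cluster, 8 are in the table and 4 were tested. *Serpinb1a*, a neutrophil elastase inhibitor that lies on the far side of *Serpinb6b*, had 3.84 TPM as its heterozygous and 5.38 TPM as its homozygous mean (log2 change 0.41, adjusted p 0.700). *Wrnip1*, the neighbouring gene that encodes a helicase-interacting ATPase, was at 26.2 and 26.1 TPM (log2 change −0.01). Within 250 kb of the serpin pair the tested genes were only these 4.

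*Man2b2*, which encodes an alpha-mannosidase that trims glycans in lysosomes, lies on chromosome 5 at 36806921 to 36830653 on the minus strand. Its level was 5.24, 4.84 and 5.79 TPM in the heterozygous and 1.32, 1.98 and 1.28 TPM in the homozygous libraries. It fell by 1.32 on the log2 scale (SE 0.18, limma adjusted p 0.0407), to 0.289 of the heterozygous mean. Wild-type hearts had 6.62, 7.84 and 9.07 TPM, so this gene too had 3 separate ranges. None of its 31-base words occurs in transcripts of other genes. No other lysosomal gene was called. At an unadjusted p under 0.05, *Man2b2* was the only 1 of 28 lysosomal hydrolase genes that was lower (2.28% of all genes). At that p 4 were higher (4.85% of all genes). Among those 4 were *Lipa* (lysosomal acid lipase, log2 change 0.46), *Man2b1* (the related lysosomal alpha-mannosidase, 0.32) and *Ctsl* (cathepsin L, 0.51). *Ctsl* was at 217 TPM in homozygous replicate 3 and at 121 and 126 TPM in the other homozygous libraries. The 3 heterozygous hearts had 15.9, 14.8 and 16.5 TPM of *Man2b1* and the 3 homozygous hearts 17.7, 20.1 and 21.9 TPM, without overlap and opposite in direction to *Man2b2*.

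*Gm12854*, a processed pseudogene on chromosome 4 at 116067268 to 116067564, was at 6.17, 2.64 and 6.01 TPM in the heterozygous libraries and was listed at 0 in each homozygous library (limma adjusted p 0.0238). Wild-type hearts had 8.32, 14.2 and 12.0 TPM. Its reads are uncertain, since 85.8% of its 31-base words occur in other transcripts, mostly of the calcium-binding protein gene *S100a11*, and it lies inside *Uqcrh* on the opposite strand. *Uqcrh*, a subunit of respiratory complex III, had means of 1268 and 1141 TPM in heterozygous and homozygous hearts (log2 change −0.15, adjusted p 0.728).

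**Figure D2:**
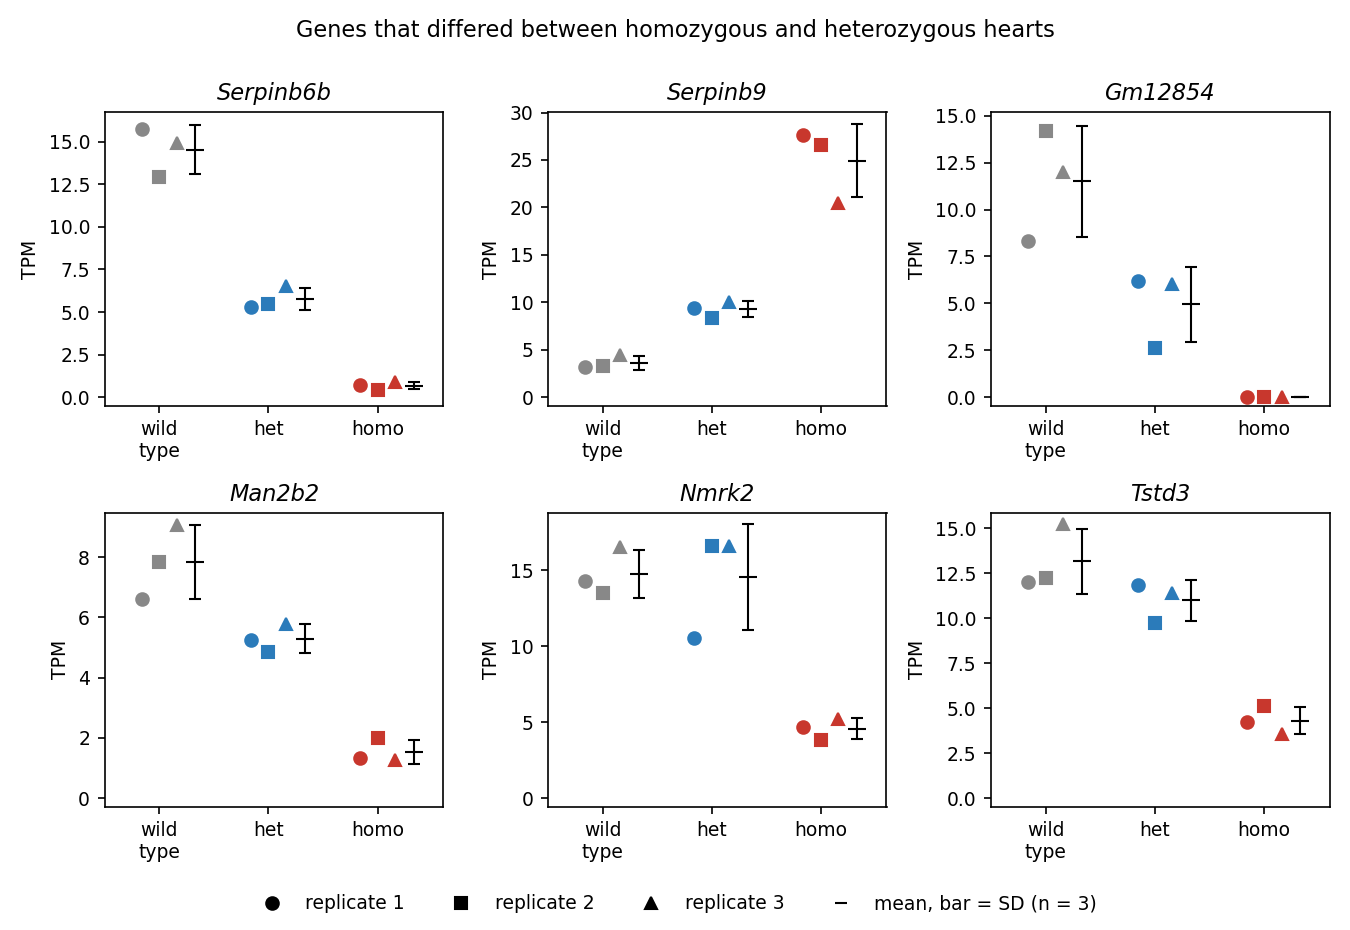
TPM in each library of the 6 genes that differed between homozygous and heterozygous hearts, with wild-type hearts (het, heterozygous; homo, homozygous). Symbols are replicates and bars are the mean ± SD (n = 3). *Serpinb6b*, *Serpinb9*, *Gm12854*, *Man2b2* and *Tstd3* occupy 3 separate ranges, while heterozygous *Nmrk2* libraries span the wild-type range and homozygous ones lie at or below 5.17 TPM.

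*Nmrk2* showed another order of the genotypes, with heterozygous levels that spanned those of wild-type hearts. It encodes a nicotinamide riboside kinase of muscle that feeds the synthesis of NAD, and lies on chromosome 10 at 81198170 to 81202051 on the minus strand. It was at 10.5, 16.6 and 16.6 TPM in the heterozygous and 4.68, 3.83 and 5.17 TPM in the homozygous libraries, a fall of 1.46 on the log2 scale (SE 0.19, limma adjusted p 0.0368). In wild-type hearts it was at 14.3, 13.5 and 16.5 TPM, a range that the heterozygous values spanned. *Nmrk2* overlaps the antisense gene *Atcayos*, which holds 13.2% of its 31-base words, and without knowledge of strand their reads cannot be told apart. Among the other 22 tested genes of NAD and creatine metabolism, the brain-type creatine kinase *Ckb* (log2 change −0.38) and the muscle-type *Ckm* (−0.31) were lower and the deacetylase *Sirt2* (0.26) higher at an unadjusted p under 0.05. Of all genes 2.28% were lower and 4.85% higher at that p. No other gene of the list was called.

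*Tstd3*, which encodes a protein with a thiosulphate sulphurtransferase-like domain, lies on chromosome 4 from 21757382 to 21767212. It was at 11.85, 9.71 and 11.4 TPM in the heterozygous and 4.24, 5.12 and 3.58 TPM in the homozygous libraries, and fell by 1.18 on the log2 scale (SE 0.16, limma adjusted p 0.0407). Wild-type libraries had 12.0, 12.2 and 15.3 TPM, so its 3 ranges were separate, although the highest heterozygous library lay just under the lowest wild-type one. Its exons overlap those of *Ccnc* and *Usp45* on the opposite strand, and 21.4% of its words are shared with other genes, so its reads are partly uncertain.

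Apart from the serpin pair, no neighbour of a called gene was itself called. Within 250 kb, 25 genes were tested beside *Nmrk2*. Of these, 6 did not overlap, against 15.8% of all genes without overlap in either direction. An unadjusted p under 0.05 was found for 3, against 4.85% of all genes higher and 2.28% lower. These 3 were *Smim24* (4.79 and 8.41 TPM, log2 change 0.70), the thromboxane receptor *Tbxa2r* (3.03 and 5.25 TPM, 0.61) and the mitochondrial ribosomal gene *Mrpl54* (142 and 121 TPM, −0.25), and none was called. Of 5 genes beside *Man2b2* and 5 beside *Tstd3*, none had an unadjusted p under 0.05. Of 12 beside *Gm12854*, *Gm29434* did, which was listed at 0 in every wild-type and homozygous library and in heterozygous replicate 1, and was at 12.3 and 7.86 TPM in the other heterozygous libraries.

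The calls differed in how far they depended on the settings and on the libraries used. No fit that left out libraries called *Man2b2* or *Tstd3*. Of such fits, *Gm12854* passed only without wild-type replicate 1 or without heterozygous replicate 2. *Nmrk2* passed only without heterozygous replicate 1, alone or together with homozygous replicate 3. The counts that follow cover all other fits, which changed the pseudocount, filter, scaling, model, covariates or libraries. *Serpinb6b* passed in 22 of the 25 other fits that included it, *Serpinb9* in 13 of 26, *Gm12854* in 11 of 25, *Nmrk2* in 11 of 26, *Man2b2* in 9 of 25 and *Tstd3* in 8 of 26, and each kept its direction in all of them. When only the 6 mutant libraries entered the fit no gene was called, with limma adjusted p-values of the 6 genes between 0.151 and 0.197, while 1092 genes had an unadjusted p under 0.05. Without homozygous replicate 3 only *Serpinb6b* and *Serpinb9* of the 6 were called, and the log2 changes of the others were −1.54 for *Nmrk2*, −1.26 for *Man2b2* and −1.08 for *Tstd3*. With sex as a covariate no gene was called and the log2 change of *Serpinb6b* was −1.95 (adjusted p 0.0610), while 480 genes had an unadjusted p under 0.05. The log2 changes among female libraries alone, which leave 1 homozygous library, were −1.99 for *Serpinb6b*, 1.48 for *Serpinb9*, −1.43 for *Nmrk2*, −1.44 for *Man2b2* and −1.19 for *Tstd3*.

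The *Ctcf* transcript itself (chromosome 8, 105636568 to 105682922 on mm10) had heterozygous levels of 33.8, 33.2 and 38.7 TPM and homozygous levels of 38.9, 41.4 and 50.2 TPM. These values did not overlap as deposited. Median-ratio scaling divides homozygous replicates 1 and 2 by 1.11 and 1.15, and the heterozygous libraries by 0.965 to 1.08. The lack of overlap thus depended on scaling. The log2 change of 0.29 (SE 0.14) had a limma adjusted p of 0.718. A substitution need not alter the transcript level, so this checks no label. Of 21 tested genes of CTCF, cohesin and their partners, none had an unadjusted p under 0.05. Of the 21, 19 had a change above 0, against 66.1% of all genes, and the median was 0.14 against 0.08 for all genes. For 9 of them the values were higher without overlap, against 12.1% of all genes, among them the cohesin acetyltransferase *Esco1*, with heterozygous values of 7.48, 7.46 and 6.84 TPM and homozygous values of 9.55, 9.89 and 9.85 TPM (log2 change 0.38, adjusted p 0.726). Homozygous replicate 3 was the highest library for *Ctcf* and, at 27.9 TPM against 13.4 to 18.0 TPM in the other 5, for the cohesin regulator *Pds5b*.

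Interferon-response genes, which encode antiviral proteins switched on by interferon signalling, had the lowest median of the functional gene lists examined, with lower medians only in the liver and airway markers that heterozygous replicate 1 carried. Of 32 tested genes, 30 had a change below 0, 24 were lower at an unadjusted p under 0.05 against 2.28% of all genes, and 16 were lower without overlap against 3.75%. The median log2 change was −0.94. No gene of the list was called, and the limma adjusted p of *Rsad2* was 0.254. Without heterozygous replicate 2, 1 of the 4 genes called was on the list. With library weights 16 of the 210 genes called, among 13832 tested, were on it. That fit gave homozygous replicate 1 a weight of 3.38, against 0.866 and 0.196 for homozygous replicates 2 and 3. Many of these genes, though not all, hold a common promoter element. The promoters of *Isg15* (chr4:156200769-156201068, minus strand) and *Rsad2* (chr12:26456403-26456702, minus strand) are printed from RefSeq (GRCm38.p6) to show it. Capitals mark matches on either strand to GAAANNGAA, a core of the interferon-stimulated response element, chosen after the values of the list had been seen, and overlapping matches run together.
Isg15: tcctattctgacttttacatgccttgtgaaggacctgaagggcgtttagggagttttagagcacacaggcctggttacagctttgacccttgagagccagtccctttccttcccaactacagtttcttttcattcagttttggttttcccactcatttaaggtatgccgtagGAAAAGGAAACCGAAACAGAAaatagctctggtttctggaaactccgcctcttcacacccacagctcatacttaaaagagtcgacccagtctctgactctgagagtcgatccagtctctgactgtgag
Rsad2: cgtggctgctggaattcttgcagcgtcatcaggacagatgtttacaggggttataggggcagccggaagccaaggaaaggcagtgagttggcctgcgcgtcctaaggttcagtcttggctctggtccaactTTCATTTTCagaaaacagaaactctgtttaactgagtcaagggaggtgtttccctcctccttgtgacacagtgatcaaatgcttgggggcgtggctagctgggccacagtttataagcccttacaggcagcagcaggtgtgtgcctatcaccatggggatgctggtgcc

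*Isg15* held 3 matches, the first at position −78 from the start, and *Rsad2* held 1, at position −119. Of the 22 tested genes of the list with a promoter window, 15 (68.2%) held at least 1 match, against 8.56% of all promoter windows. The CTCF core was found in 1 of these 22 windows. These shares describe the letters of the windows and show no binding.

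*Isg15*, a ubiquitin-like modifier, was at 45.6, 22.2 and 50.2 TPM in the heterozygous and 1.77, 7.43 and 18.9 TPM in the homozygous libraries (log2 change −2.30, SE 0.61, limma adjusted p 0.502). Its 3 homozygous values spread widely, and wild-type hearts, at 22.5, 15.6 and 39.5 TPM, overlapped both mutant groups. *Usp18*, the protease that removes ISG15 from proteins, was at 7.88, 3.50 and 11.6 TPM in the heterozygous and 0.91, 0.88 and 2.79 TPM in the homozygous libraries. *Rsad2*, the antiviral enzyme viperin, was at 7.42, 2.30 and 8.05 TPM in the heterozygous and 0.42, 1.01 and 0.99 TPM in the homozygous libraries. *Bst2*, the tetherin that holds virus particles on the cell surface, was at 92.3, 71.5 and 92.4 TPM in the heterozygous and 25.2, 47.2 and 48.5 TPM in the homozygous libraries. In each of these 4 genes the heterozygous mean was above the wild-type mean and the homozygous mean below it. For *Bst2* the wild-type, heterozygous and homozygous means were 64.1 ± 12.4, 85.4 ± 12.0 and 40.3 ± 13.1 TPM (SD, n = 3).

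Other genes lower without overlap were *Gbp3*, a guanylate-binding protein (log2 change −1.73), *Rtp4* (−1.46), *Xaf1* (−1.29), the interferon-induced *Ifi44* (−1.72) and the transcription factors *Irf7* (−1.40), *Irf9* (−0.90) and *Stat2* (−0.61). *Ifitm3*, which blocks the entry of viruses and was not on the list, was at 127, 85.8 and 151 TPM in the heterozygous and 28.9, 59.8 and 78.4 TPM in the homozygous libraries. *Ifi27* was the 1 gene of the list that was higher at an unadjusted p under 0.05, at 18.7, 20.0 and 22.1 TPM in the heterozygous and 25.4, 24.7 and 37.6 TPM in the homozygous libraries (log2 change 0.49). Averaged over the list, the libraries differed within each genotype. The mean centred log2 value was 0.45, 0.00 and 0.87 in the heterozygous and −1.02, −0.47 and −0.03 in the homozygous libraries, so heterozygous replicate 2 and homozygous replicate 3 nearly met. Without homozygous replicate 1, 13 genes were lower at an unadjusted p under 0.05 and the median was −0.72, and without heterozygous replicate 3 there were 10 and the median was −0.64. Without homozygous replicate 3 the count stayed at 24 and the median was −1.14. Genes of MHC class I presentation, many of which are interferon-inducible, had no gene at an unadjusted p under 0.05 among 21 tested, and their median was 0.06. Their mean centred log2 value was 0.17, −0.23 and 0.11 in the heterozygous and −0.37, −0.03 and 0.73 in the homozygous libraries. The highest of these was homozygous replicate 3, the library with thymocyte markers, so the homozygous libraries did not move together.

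**Figure D3:**
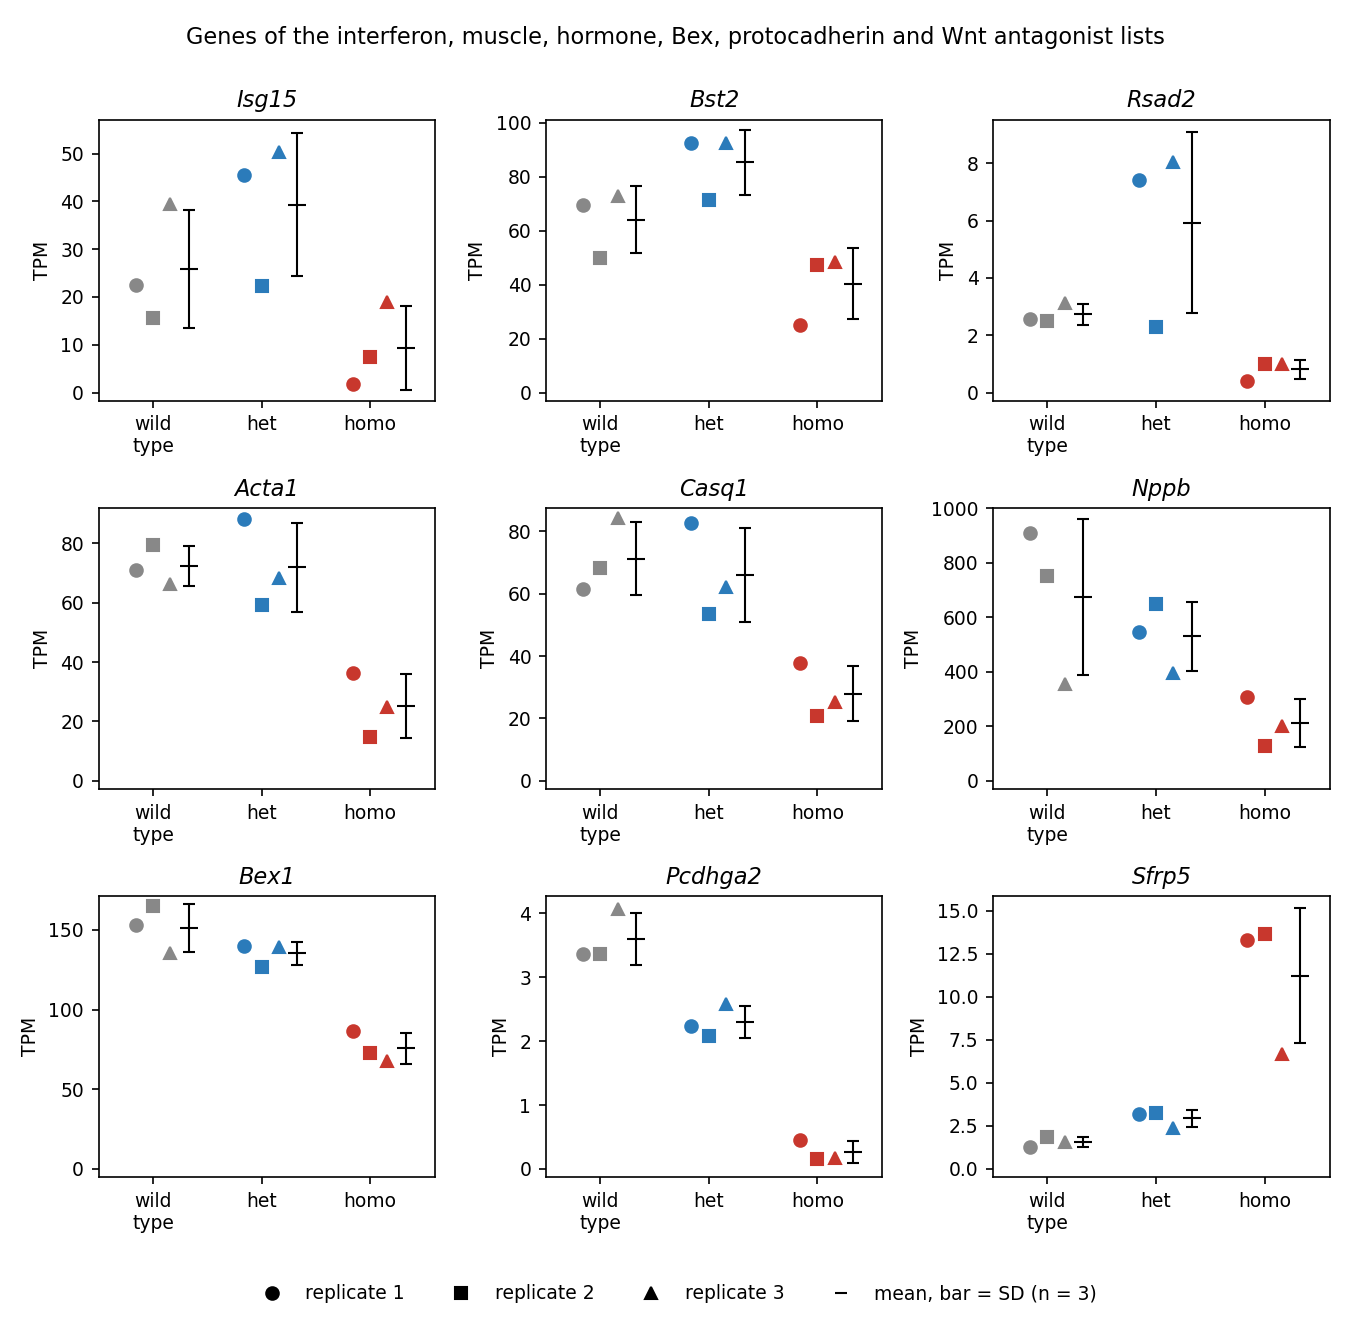
TPM in each library of 9 genes from the lists described in the text (het, heterozygous; homo, homozygous). Symbols are replicates and bars are the mean ± SD (n = 3), and none of the 9 passed the adjusted test. Heterozygous *Isg15*, *Bst2* and *Rsad2* means lie above the wild-type means, whereas heterozygous *Acta1*, *Casq1* and *Bex1* values lie close to wild type and all homozygous values lie below them.

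Sarcomere genes had a median below 0, and none was called. Of 35 tested sarcomere genes 29 had a change below 0, 9 were lower at an unadjusted p under 0.05 (2.28% of all genes) and none higher, 11 were lower without overlap (3.75% of all genes), and the median was −0.18. *Acta1*, the skeletal alpha-actin that fetal cardiomyocytes also express, was at 88.2, 59.1 and 68.5 TPM in the heterozygous and 36.2, 14.7 and 24.9 TPM in the homozygous libraries (log2 change −1.54, SE 0.27, limma adjusted p 0.181). Wild-type hearts had 71.1, 79.6 and 66.2 TPM, so the heterozygous values spanned the wild-type range and the homozygous ones lay below it. *Lmod3*, a nucleator of actin filaments, was at 34.02, 39.1 and 44.7 TPM in the heterozygous and 24.2, 24.3 and 23.3 TPM in the homozygous libraries (log2 change −0.68). *Ankrd1*, a stretch-responsive protein of the sarcomere, was at 820, 892 and 1052 TPM in the heterozygous and 789, 491 and 562 TPM in the homozygous libraries. The abundant ventricular light chain *Myl2* had a log2 change of −0.25, and the Z-disc gene *Actn2* of −0.39. *Lmod2*, a related filament nucleator of cardiac muscle, was at 54.4, 63.8 and 78.4 TPM in the heterozygous and 64.6, 83.9 and 57.9 TPM in the homozygous libraries. These overlapped, with a log2 change of 0.07 (SE 0.21) that turned to −0.02 after median-ratio scaling. Wild-type hearts had 120, 137 and 81.1 TPM of *Lmod2*. Every heterozygous value lay below that range, and so did the homozygous values apart from replicate 2.

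Genes of calcium handling showed 2 of 24 lower at an unadjusted p under 0.05, against 2.28% of all genes, with a median of −0.12. *Casq1*, the calsequestrin of fast skeletal muscle that buffers calcium in the sarcoplasmic reticulum, was at 82.8, 53.4 and 62.1 TPM in the heterozygous and 37.9, 20.6 and 25.3 TPM in the homozygous libraries (log2 change −1.23, SE 0.23, limma adjusted p 0.215). *S100a1*, a calcium-binding regulator of the release channel, was narrow within genotypes, at 210, 208 and 209 TPM in the heterozygous and 164, 164 and 156 TPM in the homozygous libraries (log2 change −0.37, adjusted p 0.425). Wild-type hearts had 295, 271 and 316 TPM of *S100a1*, so its 3 ranges were separate. *Nppb*, the natriuretic peptide released on stretch of the ventricle, was at 545, 649 and 396 TPM in the heterozygous and 306, 129 and 200.5 TPM in the homozygous libraries (log2 change −1.38, adjusted p 0.502). The atrial peptide gene *Nppa* overlapped, with 2031 TPM in homozygous replicate 3 and 3837 to 5630 TPM in the other 5 mutant libraries. Of 14 tested smooth-muscle markers, *Acta2*, *Cnn1* and *Myl9* were lower at an unadjusted p under 0.05 (log2 changes −0.69, −0.82 and −0.48), against 2.28% of all genes. The median of these markers was −0.23. The count was 1 and the median −0.03 without homozygous replicate 3.

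Genes of oxidative phosphorylation, glycolysis and sterol synthesis had medians below 0, whereas those of fatty acid oxidation and of the mitochondrial genome had medians near 0. Of 78 nuclear genes of oxidative phosphorylation 69 had a change below 0, 9 were lower at an unadjusted p under 0.05 and none higher, 23 were lower without overlap, against the same 2.28% and 3.75% of all genes, and the median was −0.11. *Cox6a1* of complex IV had the largest change at −0.34, with 1461, 1439 and 1567 TPM in the heterozygous and 1230, 1290 and 1022 TPM in the homozygous libraries. *Ndufb8* and *Ndufs6* of complex I had log2 changes of −0.29 and −0.26. Of 22 genes of glucose uptake and glycolysis 20 had a change below 0, 6 were lower at an unadjusted p under 0.05, among them hexokinase *Hk2* (−0.43) and the glucose transporter *Slc2a1* (−0.41), and the median was −0.18. In fatty acid oxidation the fatty-acid binding protein gene *Fabp3* (−0.34) and the lipoprotein lipase gene *Lpl* (−0.52) were lower among 28 tested, of which 9 lay above 0, and the median was −0.04. Of 23 genes of sterol synthesis 5 were lower, among them farnesyl diphosphate synthase *Fdps* (−0.42) and squalene epoxidase *Sqle* (−0.43), with a median of −0.25. The 13 mitochondrially encoded genes had a median of −0.01. No gene of these lists was called.

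These small differences were greater with homozygous replicate 3 than without it. The mean centred log2 value of sarcomere genes was 0.05, −0.04 and −0.36 in the homozygous and 0.05, 0.07 and 0.19 in the heterozygous libraries. Glycolysis genes were at 0.04, 0.03 and −0.38 in the homozygous and 0.06, 0.05 and 0.15 in the heterozygous libraries, so of the mutant libraries only homozygous replicate 3 lay below 0. Without homozygous replicate 3 the median was −0.07 for sarcomere, −0.05 for glycolysis, −0.03 for oxidative phosphorylation and −0.11 for sterol genes, and at an unadjusted p under 0.05 there were 6, 0, 5 and 3 genes lower. Without heterozygous replicate 1, which carried the liver markers, no sterol gene was lower at that p and the median was −0.12. The cardiomyocyte markers summed to 31340 TPM in homozygous replicate 3 and to 37533 to 44161 TPM in the other 5 mutant libraries, and the atrial markers to 5109 TPM against 9993 to 12095 TPM. Smooth-muscle markers summed to 1758, 1330 and 1219 TPM in the homozygous and 1624 to 2063 TPM in the heterozygous libraries. The part of the thymic RNA in these differences was not tested. *Acta1*, *Casq1* and *Nppb* kept log2 changes of −1.57, −1.19 and −1.38 without this library, and had −0.95, −0.76 and −0.76 among the female libraries alone.

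**Figure D4:**
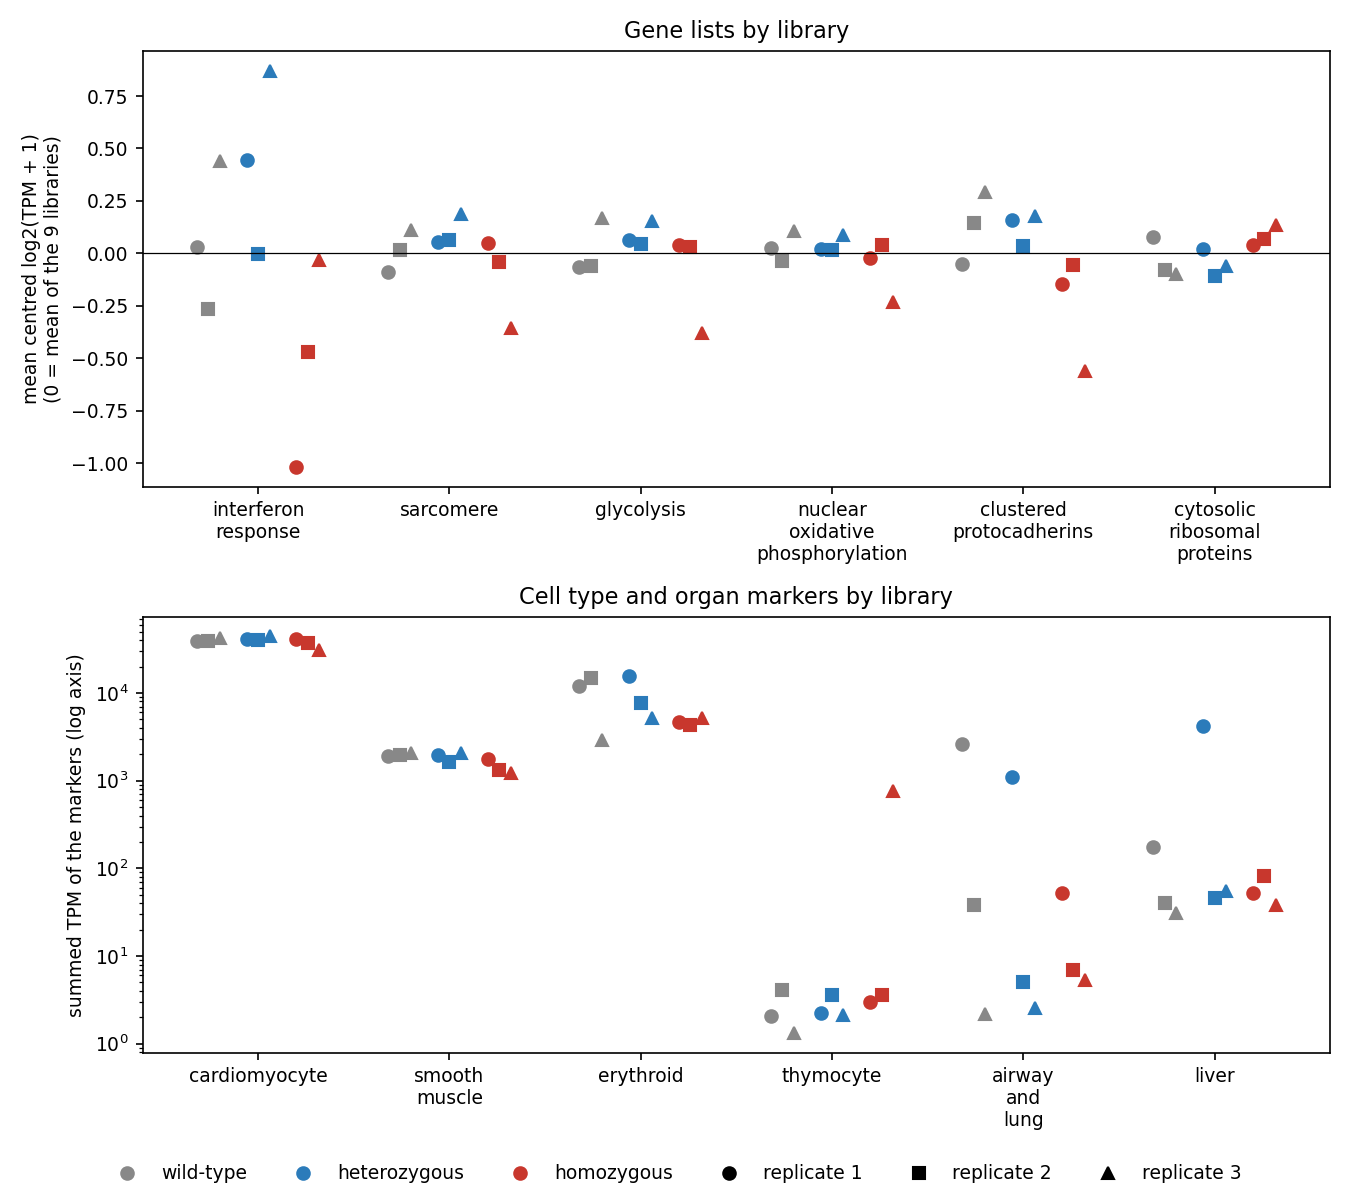
Upper panel, mean centred log2(TPM + 1) of 6 gene lists in each library, where 0 is the mean of the 9 libraries; lower panel, summed TPM of markers of 6 cell types or organs in each library (log axis). Homozygous replicate 3 (red triangles) lies lowest for sarcomere, glycolysis and oxidative phosphorylation genes and has 765 TPM of thymocyte markers, and interferon genes span −1.02 to −0.03 in homozygous hearts.

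Genes of cytosolic ribosomal proteins had a median above that of all genes, and none was called. Of 76 tested, 71 had a change above 0, against 66.1% of all genes, and the median was 0.14. At an unadjusted p under 0.05, 11 were higher, against 4.85% of all genes. Without overlap 24 were higher, against 12.1%, and 1 was lower. *Rps4x* was at 850, 784 and 869.6 TPM in the heterozygous and 995, 1019 and 978 TPM in the homozygous libraries (log2 change 0.26, limma adjusted p 0.563). *Rpl5* was at 413, 394 and 400.4 TPM in the heterozygous and 495, 471 and 492.5 TPM in the homozygous libraries. After median-ratio scaling the median was 0.06 and no ribosomal gene had an unadjusted p under 0.05. The 77 mitochondrial ribosomal protein genes had a median of −0.06, with 4 lower and 1 higher at that p, against 2.28% and 4.85% of all genes.

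Clustered protocadherins are adhesion molecules whose alternative promoters lie in gene clusters with many CTCF sites. Of 59 such genes 52 are in the table and 15 reached a mean of 1 TPM and were tested. Of these 7 were lower and 2 higher at an unadjusted p under 0.05, against 2.28% and 4.85% of all genes, and the median was −0.35. *Pcdhga2* was at 2.24, 2.08 and 2.58 TPM in the heterozygous and 0.46, 0.16 and 0.17 TPM in the homozygous libraries (log2 change −1.39, SE 0.21, limma adjusted p 0.0671). Wild-type hearts had 3.36, 3.37 and 4.07 TPM, so its 3 ranges were separate. *Pcdhga7*, with heterozygous values of 2.64, 2.31 and 2.59 TPM and homozygous values of 0.66, 0.96 and 0.38 TPM, had a heterozygous range inside the wild-type range of 2.19 to 2.84 TPM. *Pcdhga10* had log2 change −1.04, *Pcdhgb6* −0.72, *Pcdhga12* −0.71, *Pcdhgb7* −0.61 and *Pcdhga3* −0.49. The 2 that were higher were *Pcdhgb1*, with heterozygous values of 0.82, 0.71 and 0.58 TPM and homozygous values of 1.79, 2.41 and 1.01 TPM, and *Pcdhgb4* (log2 change 0.68). The tested members of the gamma cluster thus differed in direction. Each heterozygous value of *Pcdhgb1* and each homozygous value of *Pcdhga2* and *Pcdhga7* lay under 1 TPM. These genes reached the mean of 1 TPM only through the genotype with the higher values. The counts in each direction are thus partly set by the filter. Transcripts of a cluster share their last exons, so the division of reads among them is uncertain. Without homozygous replicate 3 the counts were again 7 lower and 2 higher and the median was −0.22. In that fit 280 of all 13832 genes were lower and 1200 higher. Without heterozygous replicate 2 or 3 or homozygous replicate 1 or 2, no protocadherin was higher at that p.

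*Bex1* and *Tceal7*, small X-linked genes that overlap each other on opposite strands, were both lower without overlap. *Bex1*, an adaptor protein expressed in neurons and heart, was at 140, 127 and 139 TPM in the heterozygous and 86.3, 72.9 and 67.9 TPM in the homozygous libraries (log2 change −0.84, SE 0.12, limma adjusted p 0.0607). *Tceal7* was at 20.9, 15.8 and 18.3 TPM in the heterozygous and 8.06, 4.29 and 9.01 TPM in the homozygous libraries (log2 change −1.29, adjusted p 0.235). Their reads cannot be told apart without knowledge of strand, and 14.9% of the words of *Tceal7* occur in *Bex1*. The neighbouring *Tceal5* overlapped between the genotypes, with a log2 change of −0.63, and the median of the 10 tested genes of the family was −0.06. Without homozygous replicate 3 the family had 2 genes lower and 3 higher at an unadjusted p under 0.05. In that fit 280 of all 13832 genes were lower and 1200 higher. *Lyrm9*, which encodes a small LYR-motif protein, was likewise lower without overlap, at 17.0, 24.6 and 31.9 TPM in the heterozygous and 9.13, 5.08 and 14.9 TPM in the homozygous libraries (log2 change −1.32, adjusted p 0.425).

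Of the genes with higher levels, *Sfrp5*, a secreted Wnt antagonist, came nearest to the threshold after *Serpinb9*. It was at 3.18, 3.25 and 2.38 TPM in the heterozygous and 13.3, 13.7 and 6.69 TPM in the homozygous libraries (log2 change 1.58, SE 0.25, limma adjusted p 0.0937). Without homozygous replicate 3 the log2 change was 1.89 and passed (adjusted p 0.0136). No other of the 9 tested Wnt antagonists had an unadjusted p under 0.05, and *Sfrp1* had a log2 change of 0.27. Without homozygous replicate 3, 6 were higher at that p, against 1200 of all 13832 genes in that fit. *Robo1*, the receptor for Slit guidance cues, was at 4.67, 5.39 and 5.65 TPM in the heterozygous and 12.4, 13.4 and 8.02 TPM in the homozygous libraries (log2 change 0.95, adjusted p 0.371). For *Notch1*, a receptor in the growth of trabeculae, the levels were 12.75, 13.1 and 13.7 TPM in the heterozygous and 16.6, 17.8 and 21.7 TPM in the homozygous libraries (log2 change 0.47, adjusted p 0.700). It was the 1 gene of 24 of trabeculation with an unadjusted p under 0.05, against 4.85% of all genes higher. Its highest value was in homozygous replicate 3, the library with thymocyte markers. *Gja5*, the gap-junction gene of atria and conduction cells, was at 41.4, 42.2 and 51.4 TPM in the heterozygous and 68.9, 81.8 and 47.4 TPM in the homozygous libraries, which overlapped. *F13a1*, the coagulation factor XIII subunit made by macrophages, was at 4.46, 2.10 and 5.43 TPM in the heterozygous and 7.43, 9.53 and 7.80 TPM in the homozygous libraries, while the 16 macrophage markers summed to 75.6 to 127 TPM in heterozygous and 112 to 136 TPM in homozygous hearts.

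The *Fmnl1*, *Ache* and *Crip3* transcripts were highest in the library with thymocyte markers. *Fmnl1*, a formin of blood cells, was at 6.18 and 5.12 TPM in homozygous replicates 1 and 2 and at 22.1 TPM in replicate 3, above the heterozygous 1.79 to 2.95 TPM in each case. The acetylcholinesterase gene *Ache* was at 5.01, 6.61 and 17.6 TPM in the homozygous and 2.65 to 3.35 TPM in the heterozygous libraries, and *Crip3* at 4.49, 2.94 and 31.2 TPM against 0.45 to 0.79 TPM. Their log2 changes of 1.57, 1.27 and 2.45 became 0.97, 0.78 and 1.52 without homozygous replicate 3, and none passed the adjusted test. *Ap1ar*, a regulator of adaptor-mediated transport, was uneven in another way, with 48.7, 18.6 and 47.8 TPM in the homozygous and 15.2 to 17.4 TPM in the heterozygous libraries. *Gstp2* (log2 change 0.93), the lincRNA *Gm20186* (1.12), the chemokine gene *Ccl21a* (1.21) and *Gm21541* (1.47) were higher without overlap, but between 60.3% and 97.1% of their 31-base words occur in other genes. *Gm29331* (log2 change −2.41) likewise shares 95.1% of its words with *Adcy6*, on whose opposite strand it lies. *Ccl21a* was at 11.63 TPM in heterozygous replicate 1 and 11.67 TPM in homozygous replicate 1, which median-ratio scaling divides by 1.03 and 1.11. Its lack of overlap thus depended on scaling, and its highest value, 29.6 TPM, was in homozygous replicate 3.

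**Figure D5:**
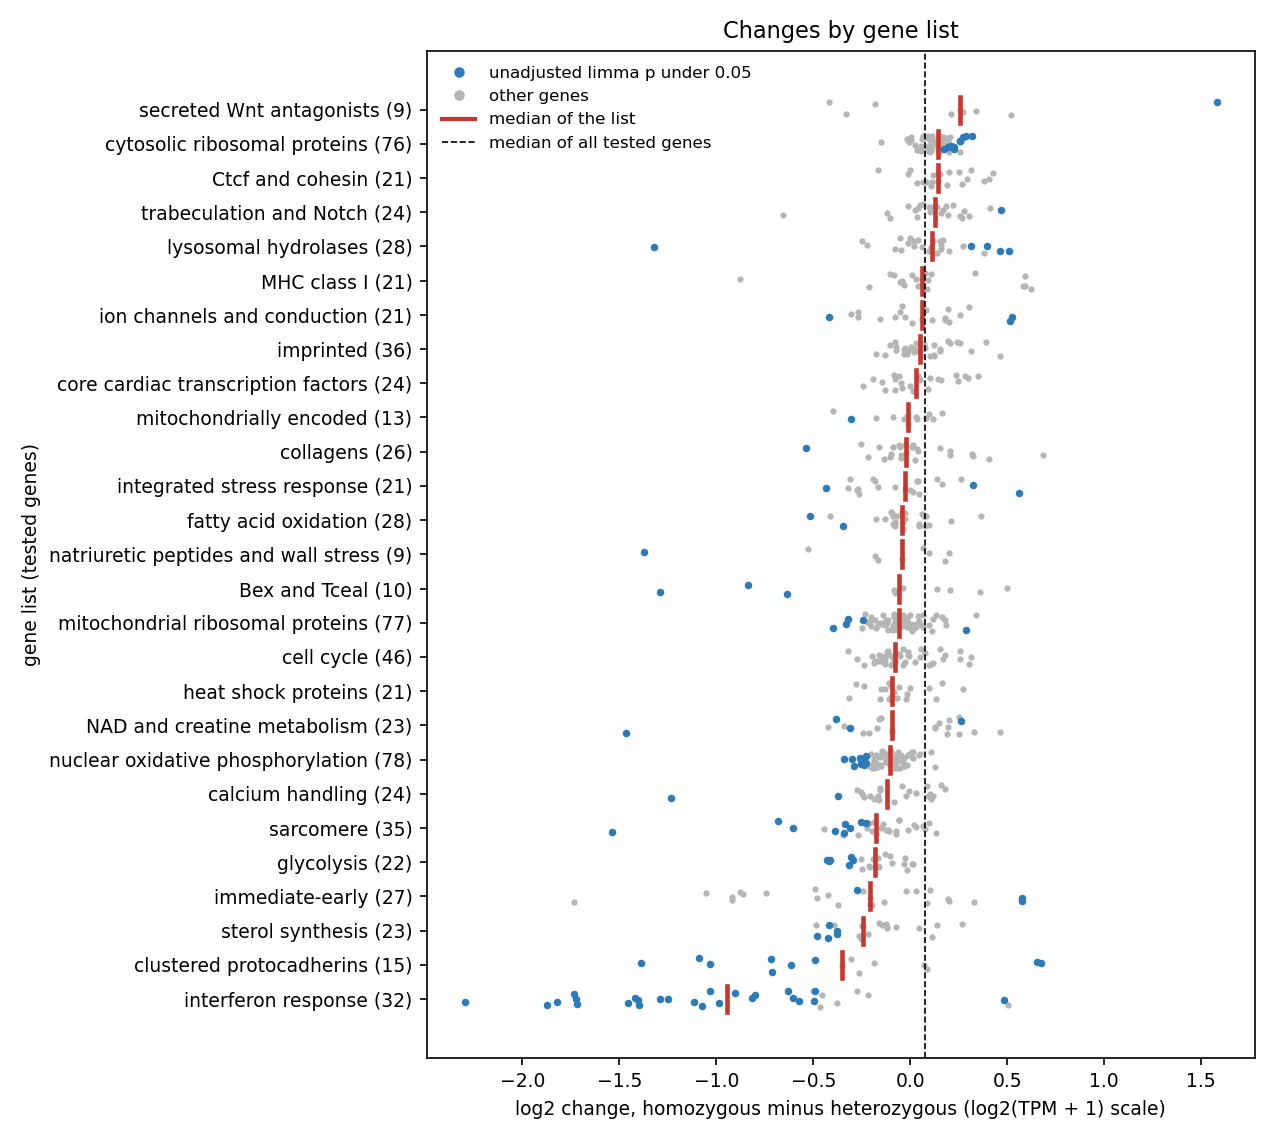
Log2 change, homozygous minus heterozygous, of each tested gene by gene list, with the number of tested genes in parentheses. Blue points have an unadjusted limma p under 0.05, red bars are list medians and the dashed line is the median of all tested genes, 0.08. Interferon-response genes have a median of −0.94 and clustered protocadherins of −0.35, against 0.14 for cytosolic ribosomal proteins.

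Other groups of genes showed few differences. In the fit of all 9 libraries, 4.85% of all genes were higher and 2.28% lower at an unadjusted p under 0.05. No gene of 46 of the cell cycle, of 24 core cardiac transcription factors, of 36 imprinted genes or of 21 heat shock proteins had an unadjusted p under 0.05, and their medians were −0.08, 0.03, 0.05 and −0.09. Without homozygous replicate 3, 1200 of all 13832 genes were higher and 280 lower at that p, and the median of all genes was 0.13. In that fit 10 imprinted genes were higher and their median was 0.24. Collagens likewise went from 1 lower of 26 (*Col15a1*, log2 change −0.54) to 8 higher, with medians of −0.02 and 0.32. The integrated stress response, driven by *Atf4*, had 2 genes higher and 1 lower of 21, the latter being the mitochondrial folate enzyme *Mthfd2*, at 11.7, 11.5 and 11.0 TPM in the heterozygous and 8.61, 7.83 and 8.08 TPM in the homozygous libraries (log2 change −0.44, limma adjusted p 0.477). Immediate-early genes had a median of −0.21 with 2 of 27 higher and 1 lower, and *Fos*, the transcription factor gene induced within minutes of a stimulus, was among those whose values spread widely (log2 change −1.74, adjusted p 0.766). Only 3 Hox genes of 39 reached a mean of 1 TPM, with changes between 0.06 and 0.30. Ion channel genes had 2 higher and 1 lower of 21 with a median of 0.06, trabeculation genes a median of 0.13, and natriuretic peptide and wall stress genes 1 lower of 9, which was *Nppb*. Among markers of cell types, none of 15 endothelial, 14 epicardial and fibroblast or 8 atrial genes had an unadjusted p under 0.05, with medians of 0.03, −0.03 and 0.08. These medians were 0.25, 0.27 and 0.40 without homozygous replicate 3, and 3 endothelial and 5 atrial markers were higher at that p. The 12 tested erythroid markers had a median of −0.77, with 1 higher and 1 lower, which became −0.26 without heterozygous replicate 1, and summed to 5189 to 15619 TPM in the heterozygous and 4364 to 5223 TPM in the homozygous libraries. Of 10 cardiomyocyte markers 3 were lower, of 8 ventricular markers 2 and of 5 skeletal-muscle markers 1, with medians of −0.21, −0.14 and 0.05. The cardiomyocyte markers had 1 lower and 1 higher and a median of −0.11 without homozygous replicate 3. The 2 tested neuron markers had a median of 0.09.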

How the data were processed

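RNA from E18.5 hearts was sequenced as 9 libraries, grouped by genotype from the sample titles. The deposited TPM values were made by the authors, and the submitters' processing notes name Trim Galore, STAR, RSEM and the mm10 build; the annotation release and strand setting were not given in the sources used here. TPM keeps no depth, so counting intervals could not be given and a count model such as the DESeq2 named in those notes was not used. The 26 symbols turned into dates (at most 0.0921% of a library) were dropped. log2(TPM + 1) of genes averaging 1 TPM or more across the 6 mutant libraries was fitted with limma 3.58.1 (R 4.3.3), with all 9 libraries, a mean-variance trend and Benjamini-Hochberg adjustment over 13832 genes, and the scripts were tested on simulated data. Coordinates were matched by symbol to GENCODE for 13434 genes (97.1%), and promoters came from RefSeq (GRCm38.p6, the same build). Sharing between transcripts was counted as words of 31 bases. Named genes were all called genes, and up to 12 in each direction with the greatest change among genes averaging 5 TPM or more, an unadjusted p under 0.01 and no overlap, beside *Ctcf* and *Lmod2*; members of gene lists were named by their values, and some members are not reported here. The members and lists were chosen with earlier results of these data known. Alternatives covered the pseudocount, filter, scaling, model, libraries and covariates.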

Additional observations from a re-analysis of the deposited data

How the results depend on the processing

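The number of called genes, 6 in the report, was 2 with a pseudocount of 5, 2 without a filter, 2 with a minimum mean of 5 TPM, 13 after median-ratio scaling, 12 after quantile normalization, 10 when TPM was rescaled without mitochondrial and haemoglobin genes, and 210 with library weights. It was 0 when only the 6 libraries entered the limma fit (1092 genes at an unadjusted p under 0.05) and 0 with sex as a covariate (480 genes). It was 10, of which 2 were among the 6, without heterozygous replicate 1 and homozygous replicate 3. That fit kept wild-type replicate 1, which had 2629 TPM of airway and lung markers. The number was 1 to 6 when single libraries were left out. It was 1 when the library removed was homozygous replicate 1, heterozygous replicate 3 or wild-type replicate 2. Same-numbered heterozygous and homozygous libraries did not deviate together (correlations 0.020, 0.003 and −0.030), so the numbers do not pair them, and with a replicate block 1 gene was called. The other settings gave 5 to 9 calls, and the 9 among female libraries alone included none of the 6. The log2 change of *Lmod2* became −0.017 after median-ratio scaling and −0.00346 among female libraries, and ranged from −0.0811 without homozygous replicate 2 to 0.204 without heterozygous replicate 3, being −0.0555 without heterozygous replicate 1. Of the other values of named genes across settings, 677 kept direction and side of the threshold, 79 no longer passed it and 17 newly passed. Counts within gene lists under other settings were chosen after seeing the data. The cause of these differences was not tested. Depth is unknown from TPM, so low genes such as *Serpinb6b* in homozygous hearts carry a counting error that could not be given.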
